A study of Rattus norvegicus with 15 samples.

Results

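The genes *Pvalb*, *Calb1*, *Calb2*, *Hpca*, *Hpcal1*, *Vsnl1*, *Ncald*, *Caln1* and *Necab1*, which encode calcium-binding proteins found in neurons of the auditory midbrain, were read in RNA from the inferior colliculus (IC) of Wistar Audiogenic Rats (WAR) and Wistar rats. The list was set by name, with earlier results of these data known, and all 9 were measured among the 14506 genes that carried a symbol on the Affymetrix rat gene array. Each was read by 1 probe set, a group of probes spread along the transcript. The probe sets were 10905277 for *Pvalb*, 10867731 for *Calb1*, 10810964 for *Calb2*, 10879963 for *Hpca*, 10883801 for *Hpcal1*, 10889213 for *Vsnl1*, 10903387 for *Ncald*, 10761301 for *Caln1* and 10875616 for *Necab1*.

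The 15 arrays came from male rats of 12 weeks and about 230 g, and tissue of stimulated rats was taken 60 min after the stimulus. WAR is a strain bred from Wistar rats for seizures evoked by loud sound. Wistar N (4 arrays) and WAR N (4 arrays) were naïve, that is, not exposed to sound, whereas Wistar S (2 arrays) and WAR S (5 arrays) received acoustic stimulation, which evokes seizures in WAR but not in Wistar rats. By the array labels the Wistar rats came from Charles River Laboratories and the WAR rats from the School of Medicine of Ribeirão Preto. Strain and supplier therefore cannot be told apart here. The methods text names a single university facility for both strains. It takes its array data from an earlier study, however, so that facility need not be the source of the rats on these arrays. The notes on the deposit describe every animal as stimulated, and the groups used here follow the array labels instead. No source used here states whether an array holds the RNA of a single rat, and the p-values measure the spread between arrays.

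Parvalbumin, calbindin and calretinin, the products of *Pvalb*, *Calb1* and *Calb2*, are EF-hand proteins that buffer calcium in the cytoplasm and mark largely different neurons of the IC. Parvalbumin is known from fast-spiking neurons and from the central nucleus, the main relay of ascending auditory input, while calbindin and calretinin label more of the surrounding cortical divisions. Hippocalcin (*Hpca*), hippocalcin-like 1 (*Hpcal1*), visinin-like 1 (*Vsnl1*) and neurocalcin delta (*Ncald*) are calcium sensors that move to membranes when calcium rises, calneuron 1 (*Caln1*) is a sensor of the Golgi and secretory route, and *Necab1* encodes a neuronal EF-hand protein found in subsets of neurons.

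For *Pvalb* and *Hpca*, which differed between naïve WAR and Wistar rats in opposite directions, the 250 bases before the RefSeq start of the gene (rat assembly GRCr8) carry the following letters. Capitals mark TGACG or its reverse complement CGTCA, the core of the cyclic AMP response element, through which calcium-activated CREB can act. The window of *Pvalb* is chr7:111666290-111666539 on the minus strand, and that of *Hpca* is chr5:146748359-146748608 on the minus strand.
Pvalb: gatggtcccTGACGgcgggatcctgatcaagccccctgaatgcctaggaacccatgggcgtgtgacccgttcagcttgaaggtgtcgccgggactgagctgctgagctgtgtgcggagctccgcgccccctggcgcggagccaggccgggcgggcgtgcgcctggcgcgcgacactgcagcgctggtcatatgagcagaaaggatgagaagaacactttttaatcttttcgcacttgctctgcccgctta
Hpca: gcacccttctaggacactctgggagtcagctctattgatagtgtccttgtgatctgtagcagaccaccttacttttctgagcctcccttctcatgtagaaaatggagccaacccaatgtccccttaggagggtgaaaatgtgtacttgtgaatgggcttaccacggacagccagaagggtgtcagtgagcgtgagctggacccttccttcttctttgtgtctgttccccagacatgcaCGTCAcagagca
These letters began 241 bases before the start of *Pvalb* and 12 bases before that of *Hpca*. They were absent from the windows of *Hpcal1*, *Vsnl1* and *Caln1*, while *Calb1*, *Calb2*, *Ncald* and *Necab1* were not matched to a window. Of 33469 windows of this length, 6097 (18.2%) held the letters on either strand, so their presence in 2 of 5 windows is a description of sequence and not of a binding site.

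Values are log2 intensities after RMA, the normalization used by the authors. Stimulated arrays shared 2675 to 3286 identical probe set values in each pair, and 0 were shared across the divide between sound and no sound. The naïve and stimulated sides were therefore taken to have been normalized apart, and strains were compared within each. Wistar N replicate 1 stood apart from its group. Its correlation across genes was 0.956 to 0.964 with the other Wistar N arrays and 0.981 to 0.988 with the WAR N arrays, and it lay nearer to the WAR N mean for 9760 of 14506 genes (67.3%) and for 6 of the 9 calcium-binding protein genes. Of the 60 genes that differed between WAR S and Wistar S, by contrast, it lay nearer to WAR N for 11 (18.3%). The other Wistar N arrays correlated with the WAR N arrays at 0.963 to 0.974. Which Wistar N arrays are typical of the strain was not tested, so values without replicate 1 are not to be preferred. Where a naïve call among the 9 genes, or a naïve count in a gene list, changed without Wistar N replicate 1, the value without it is given as well. By the running numbers in their labels the arrays fall into a first and a second label set, which no source names as batches, and both Wistar S arrays are in the first.

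Mean values of the 9 genes lay at percentiles 70.2 (*Calb1*) to 99.9 (*Vsnl1*) of all genes. Probe sets differ in how brightly they read the same amount of RNA, so that such percentiles describe brightness on the array and do not rank genes by level. Of genes used to mark the tissue, *Slc17a6*, the vesicular glutamate transporter of midbrain glutamatergic neurons, lay at percentile 97, and *Gad1* and *Gad2*, the enzymes of GABA synthesis, lay at 92.8 and 95.5. The tectum markers ran from percentile 32.3 (*Tal1*) to 93.7 (*Meis2*), while *Pax7*, *Otx2* and *En1* were not measured under a name. The forebrain markers *Neurod6*, *Neurod2* and *Lhx2* lay at 14.1, 18.6 and 65.1, and the cerebellar genes *Gabra6* and *Cbln1* at 15.3 and 44.2. These ranges overlap, and the dissected region was not settled from them.

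**Figure D1:**
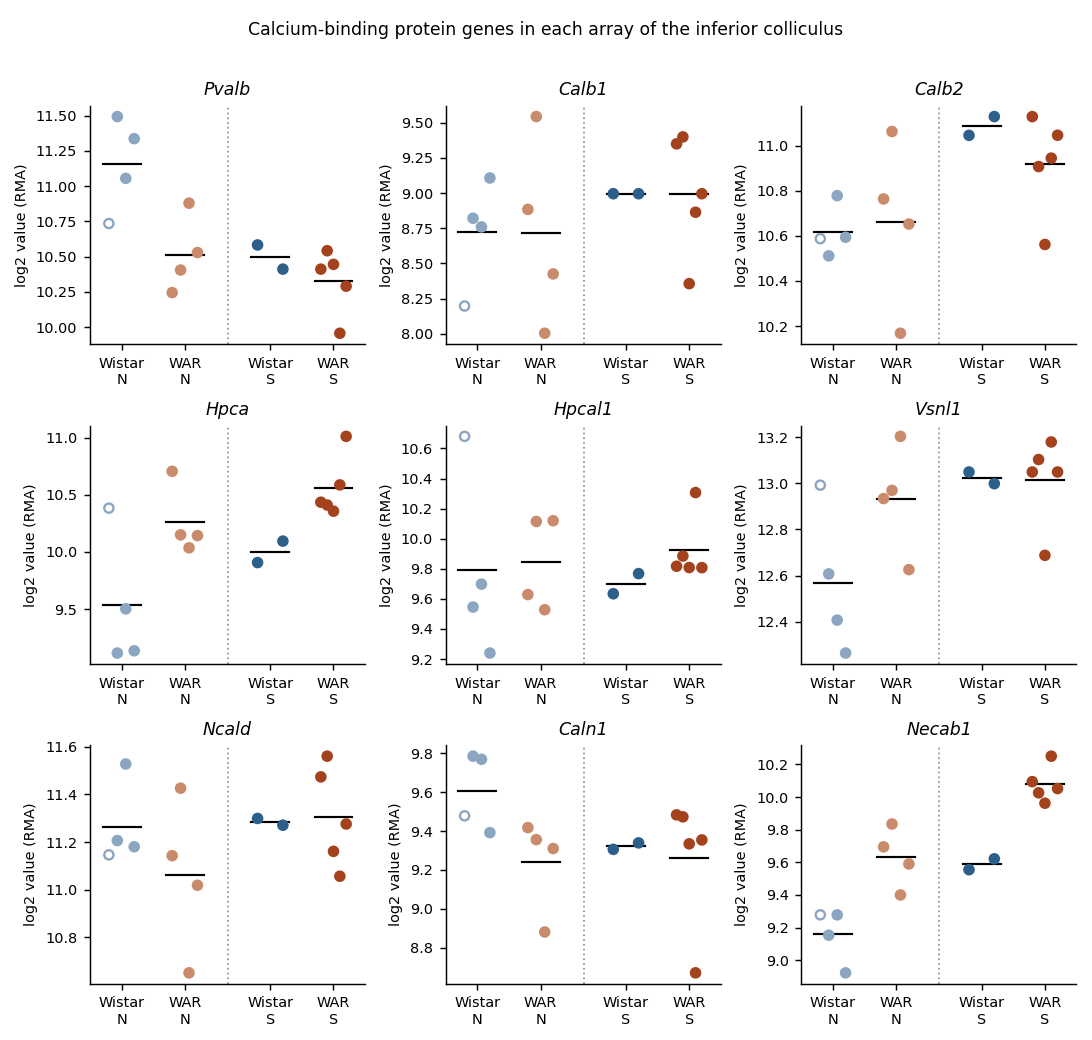
Log2 values (RMA) of the 9 genes on the vertical axes, with a point for each array, a line for the mean of each group, and an open circle for Wistar N replicate 1. The dotted line separates naïve from stimulated arrays, which were taken to have been normalized apart. The *Necab1* points of WAR lie above all Wistar points on each side of that line, and the *Pvalb* points of Wistar N lie highest in their panel apart from the open circle.

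*Necab1* was higher in naïve WAR than in naïve Wistar rats, and its stimulated values differed in the same direction without passing the test. In Wistar N its values were 9.28, 9.15, 9.28 and 8.92, and in WAR N they were 9.69, 9.84, 9.40 and 9.59. Every WAR N array lay above every Wistar N array, including Wistar N replicate 1. The means were 9.16 ± 0.17 (SD, n = 4) and 9.63 ± 0.18 (SD, n = 4), a log2 fold change of 0.47 (standard error 0.10, 95% confidence interval 0.25 to 0.69, adjusted p = 0.0060 from limma over all 14506 genes), or 1.39-fold. An exact 2-sided permutation test over the 8 arrays gave p = 0.0286, the smallest that 70 splits allow. Fitted over the naïve arrays alone the adjusted p from limma was 0.0532, and over the first label set alone it was 0.0542, so the call was lost in both.

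With sound, *Necab1* values were 9.55 and 9.62 in Wistar S and 10.09, 10.03, 9.96, 10.25 and 10.05 in WAR S. The groups did not overlap, with a gap of 0.34 between the highest Wistar S and the lowest WAR S array. The log2 fold change was 0.49 (standard error 0.12, 95% confidence interval 0.23 to 0.75), close in size to the naïve one, and the exact permutation p was 0.0476, the smallest that 21 splits allow. Adjusted over all genes, the limma p was 0.130, so this difference did not pass the threshold of 0.05, whereas its unadjusted p was 0.0012. The strain difference with sound was larger than that without by 0.02 (95% confidence interval −0.32 to 0.36, adjusted p = 0.973 from limma). Non-overlapping groups with WAR higher in both parts were found for 367 genes (2.53%), and *Necab1* was the 1 gene of the 9 among them.

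*Hpca*, whose hippocalcin acts as a calcium sensor in the slow afterhyperpolarization of neurons, was the other gene higher in naïve WAR. Its Wistar N values were 10.38, 9.11, 9.50 and 9.13, and its WAR N values were 10.71, 10.15, 10.04 and 10.14. Wistar N replicate 1 lay among the WAR N arrays, and the other Wistar N arrays lay below all of them. This gave a log2 fold change of 0.72 (standard error 0.24, 95% confidence interval 0.20 to 1.25, adjusted p = 0.0494 from limma), or 1.65-fold, and the exact permutation p was 0.114. With only the naïve groups in the model the adjusted p was 0.144. Without Wistar N replicate 1 it was 1.01 (adjusted p = 0.0004 from limma), and without any other naïve array the adjusted p was above 0.05, so that the call rests on each of these 7 arrays.

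Under stimulation *Hpca* was 9.91 and 10.09 in Wistar S and 10.43, 10.41, 10.36, 10.59 and 11.01 in WAR S. All 5 WAR S arrays lay above both Wistar S arrays, by a gap of 0.26. A log2 fold change of 0.56 (standard error 0.29, 95% confidence interval −0.06 to 1.18) did not pass the test (adjusted p = 0.843 from limma), and the exact permutation p was 0.0476. Its shift between the strain differences with and without sound was −0.17 (95% confidence interval −0.98 to 0.65).

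*Hpcal1*, a close relative of *Hpca*, did not differ between naïve strains beyond its spread. Wistar N values were 10.68, 9.55, 9.70 and 9.24, and WAR N values were 9.63, 10.11, 9.53 and 10.12. Here Wistar N replicate 1 was the highest of all 8 naïve arrays. On the log2 scale the strains differed by 0.06 (95% confidence interval −0.47 to 0.59), and by 0.35 without that array, and neither value passed the test. Stimulated values were 9.63 and 9.77 in Wistar S and 9.82, 9.89, 9.81, 10.31 and 9.81 in WAR S, which do not overlap, although the gap was 0.04 and the exact permutation p was 0.286. Its stimulated difference was 0.22 on the log2 scale (95% confidence interval −0.40 to 0.85). Whether probes of *Hpca* and *Hpcal1* also bind the transcript of the relative was not tested.

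*Pvalb* was lower in naïve WAR. Wistar N values were 10.74, 11.49, 11.06 and 11.34, and WAR N values were 10.24, 10.40, 10.88 and 10.53. Of the WAR N arrays 3 lay below all Wistar N arrays, and WAR N replicate 3 lay above Wistar N replicate 1 and below the other Wistar N arrays. The means of 11.16 ± 0.33 (SD, n = 4) in Wistar N and 10.51 ± 0.27 (SD, n = 4) in WAR N gave a log2 fold change of −0.64 (standard error 0.17, 95% confidence interval −1.01 to −0.27, adjusted p = 0.0179 from limma), or 1.56-fold lower, with an exact permutation p of 0.0571. Without Wistar N replicate 1 the log2 fold change was −0.78 (adjusted p = 0.0012 from limma). The call was lost without WAR N replicate 1 (adjusted p = 0.0590), Wistar N replicate 2 (adjusted p = 0.0604) or Wistar N replicate 4 (adjusted p = 0.0521), and with only the naïve groups in the model (adjusted p = 0.0723). In bulk tissue, fewer parvalbumin neurons, less *Pvalb* RNA per neuron and a difference in the tissue dissected cannot be told apart.

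In stimulated rats *Pvalb* was 10.58 and 10.41 in Wistar S and 10.41, 10.54, 10.45, 9.96 and 10.29 in WAR S. The groups overlapped, and Wistar S replicate 2 and WAR S replicate 1 held the same value. Stimulated WAR differed from Wistar by −0.17 on the log2 scale (95% confidence interval −0.60 to 0.27). The strain effects with and without sound differed by 0.47 (95% confidence interval −0.10 to 1.04, adjusted p = 0.423 from limma), which did not pass the test, so the naïve difference was not shown to be particular to naïve rats.

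*Calb1* and *Calb2*, the other classical buffers, had no strain difference beyond the spread. *Calb1* values were 8.20, 8.82, 8.76 and 9.11 in Wistar N and 8.88, 9.54, 8.00 and 8.43 in WAR N. The WAR N arrays spanned 1.54 and held both the highest and the lowest value of the 8. Their means differed by −0.0071 on the log2 scale, with a 95% confidence interval of −0.65 to 0.63, which leaves room for a difference of that size in either direction. Within the first label set the naïve difference was 0.56 and within the second −0.58. Both *Calb1* arrays of Wistar S and WAR S replicate 5 held the same value of 9.00, and the other WAR S values were 9.35, 9.40, 8.36 and 8.86, which put the stimulated difference at −0.0025 (95% confidence interval −0.76 to 0.76). WAR arrays of the first label set lay above those of the second for *Calb1* in WAR N (8.88 and 9.54 against 8.00 and 8.43) and in WAR S (9.00 to 9.40 against 8.36 and 8.86). The same held for *Ncald* and *Caln1* in both groups, whereas in Wistar N the second set lay above for *Ncald* and *Caln1*. In WAR N alone the sets were also apart for *Calb2*, *Hpca* and *Necab1*, higher in the first, and for *Pvalb*, higher in the second. The part of the label set in these values was not tested.

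*Calb2* values were 10.59, 10.51, 10.78 and 10.59 in Wistar N and 10.76, 11.06, 10.17 and 10.65 in WAR N. The Wistar N arrays lay within the range of the WAR N arrays. The strains differed by 0.04 on the log2 scale (95% confidence interval −0.29 to 0.38), with 0.32 in the first and −0.23 in the second label set. Under stimulation *Calb2* was 11.05 and 11.13 in Wistar S and 11.13, 10.91, 10.56, 10.94 and 11.05 in WAR S, where the groups overlapped and differed by −0.17 on the log2 scale (95% confidence interval −0.57 to 0.23).

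*Vsnl1*, which encodes a sensor also followed as a marker of neuronal injury, was 12.99, 12.61, 12.41 and 12.27 in Wistar N and 12.93, 12.97, 13.20 and 12.63 in WAR N. Apart from Wistar N replicate 1, the Wistar N arrays lay below all WAR N arrays. The log2 fold change of 0.36 (standard error 0.15) did not pass the test (adjusted p = 0.108 from limma), and without Wistar N replicate 1 it was 0.51 (adjusted p = 0.0073 from limma), past the threshold. Stimulated values were 13.05 and 13.00 in Wistar S and 13.05, 13.10, 12.69, 13.18 and 13.05 in WAR S. WAR S arrays lay on both sides of Wistar S, and the difference was −0.01 (95% confidence interval −0.40 to 0.38).

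*Ncald* and *Caln1* had lower naïve means in WAR that did not pass the test. *Ncald* was 11.15, 11.21, 11.53 and 11.18 in Wistar N and 11.14, 11.43, 10.65 and 11.02 in WAR N, which is −0.21 between the strains on the log2 scale (95% confidence interval −0.53 to 0.12, adjusted p = 0.361 from limma). *Caln1* was 9.48, 9.78, 9.77 and 9.39 in Wistar N and 9.42, 9.36, 8.88 and 9.31 in WAR N. A single WAR N array of *Caln1* reached into the Wistar N range, and the log2 fold change was −0.36 (standard error 0.17, adjusted p = 0.145 from limma). In the second label set both genes were further apart (*Ncald* −0.53, *Caln1* −0.68) than in the first (0.12 and −0.05). Stimulated *Ncald* values were 11.30 and 11.27 in Wistar S and 11.47, 11.56, 11.16, 11.06 and 11.28 in WAR S, and those of *Caln1* were 9.31 and 9.34 in Wistar S and 9.48, 9.47, 9.33, 8.67 and 9.35 in WAR S. WAR S arrays lay on both sides of Wistar S for both genes, and their differences on the log2 scale were 0.02 (95% confidence interval −0.36 to 0.40) and −0.06 (95% confidence interval −0.49 to 0.37).

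**Figure D2:**
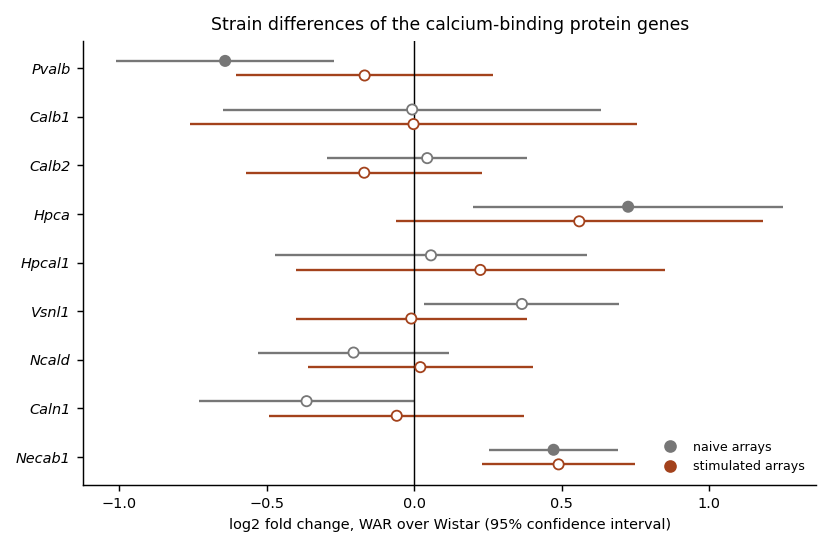
Log2 fold changes of WAR over Wistar for the 9 genes, with 95% confidence intervals from limma, in naïve (grey) and stimulated (red) arrays, where filled points passed an adjusted p of 0.05. *Pvalb*, *Hpca* and *Necab1* are filled for naïve arrays, no gene is filled for stimulated arrays, and the *Necab1* points lie at 0.47 and 0.49.

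Counted together, 3 of the 9 genes passed the adjusted threshold in naïve rats, *Hpca* and *Necab1* higher and *Pvalb* lower in WAR, where 20.9% of all genes did (11.6% higher and 9.38% lower). The groups of 1 gene, *Necab1*, did not overlap, against 13.4% of all genes. With such a background the counts do not set the 9 genes apart from other genes. Their median log2 fold change was 0.04, against 0.02 over all genes. Without Wistar N replicate 1, 4 of the 9 were called, against 41.1% of all genes (22.6% higher and 18.5% lower). In stimulated rats 0 of 9 passed, against 60 genes (0.414%), and 1 of 9, *Necab1*, had an unadjusted limma p under 0.05, against 994 genes (6.85%). With array weights in limma *Hpca* and *Necab1* passed, against 9.88% of all genes, and with the stimulated arrays alone in the model *Necab1* did, against 1.89%. The weights ran from 0.91 to 2.86 on stimulated arrays and from 0.10 (Wistar N replicate 1) to 1.18 on naïve arrays. Calls with these weights thus lean on the stimulated arrays, which share identical values. The groups did not overlap for *Hpca*, *Hpcal1* and *Necab1*, each higher in WAR S, against 20.7% of all genes (12.4% higher). The median log2 fold change was −0.0025, against 0.01 over all genes.

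A change of the strain difference with sound passed an adjusted p of 0.05 for 0 of the 9, against 15 genes (0.103%). An unadjusted limma p under 0.05 was reached by 0 of 9, against 2171 genes (15%). Without Wistar N replicate 1, 0 of the 9 passed the adjusted threshold, against 2956 genes (20.4%). This contrast rests on 2 Wistar S arrays, so a change in these genes was not excluded. With array weights *Pvalb* passed (adjusted p = 0.0452), where 23.1% of all genes did. Averaged over the naïve and stimulated comparisons, a contrast added after the values were seen, *Necab1* was higher in WAR by 0.48 (standard error 0.08, adjusted p = 0.0026 from limma) and *Hpca* by 0.64 (standard error 0.19, adjusted p = 0.0467), where 9.99% of all genes passed. *Pvalb* was at −0.40 (adjusted p = 0.0701). *Hpca* lost this call without any array other than Wistar N replicate 1, and *Necab1* kept it with each array left out.

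**Figure D3:**
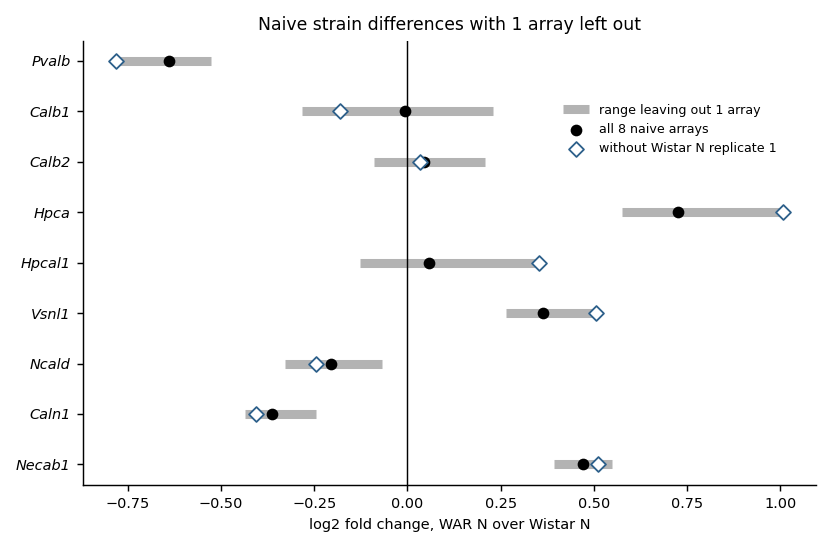
Naïve log2 fold changes of WAR N over Wistar N for the 9 genes with all 8 naïve arrays (black), without Wistar N replicate 1 (open diamonds) and over all naïve arrays left out in turn (grey bars). *Hpca* moves from 0.72 to 1.01 and *Pvalb* from −0.64 to −0.78 without that array, while *Necab1* moves from 0.47 to 0.51.

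Within the label sets the 3 genes called in naïve rats kept their direction. *Pvalb* was at −0.71 in the first and −0.57 in the second, *Hpca* at 0.67 and 0.78, and *Necab1* at 0.66 and 0.28, each from 2 arrays a strain. Individual arrays also carried several of the 9 genes at once. WAR N replicate 3 was the lowest WAR N array for 7 of them and the highest for *Pvalb* and *Vsnl1*. WAR S replicate 3 was the lowest WAR S array for 5 of them, and WAR S replicate 4 was the lowest for *Pvalb*, *Ncald* and *Caln1* and the highest for *Hpcal1*, *Vsnl1* and *Necab1*. Wistar N replicate 1 was the highest Wistar N array for *Hpca*, *Hpcal1*, *Vsnl1* and *Necab1* and the lowest for *Pvalb*, *Calb1* and *Ncald*.

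Other calcium genes moved in both directions in naïve rats. For this list and those that follow, the background is the same 11.6% of all genes higher and 9.38% lower in WAR N, or 22.6% and 18.5% without Wistar N replicate 1. Of 22 further calcium-binding and calmodulin-regulating proteins measured, 5 were higher and 4 were lower in WAR N, with a median log2 fold change of −0.06. Leaving out that array gave 7 higher and 4 lower, the added genes being *Kcnip3* (1.69) and *Ncs1* (0.34). *S100a1*, a calcium sensor of the S100 family, was higher by 1.85 (adjusted p = 0.0039 from limma), *Kcnip1*, a calcium-sensing subunit of A-type potassium channels, by 0.84 (adjusted p = 0.0394), and *Pcp4*, which regulates calmodulin without an EF hand, by 0.31 (adjusted p = 0.0473). *S100a1* was 11.72 to 12.23 in WAR N, 11.63 in Wistar N replicate 1 and 9.40 to 9.86 in the other Wistar N arrays. *Kcnip1* was 10.08 to 10.39 in WAR N, 10.63 in Wistar N replicate 1 and 8.87 to 9.17 in the others. Both differences therefore rest on Wistar N arrays other than replicate 1, and with sound they were 0.03 for *S100a1* and 0.05 for *Kcnip1*. The relatives of *Necab1* differed from each other, since *Necab3* was higher by 0.46 (adjusted p = 0.0155) and *Necab2* lower, at −0.60 (adjusted p = 0.0055). *Calm3*, which encodes calmodulin, was lower at −0.25, *Chp1* at −0.48 and *Efhd2* at −0.40, and *Cib1* was higher by 0.46. With sound *Calm3* was at −0.36 and *Cib1* at 0.47, while *Chp1* and *Efhd2* were each at −0.04. *Necab3* was then at 0.11, *Necab2* at 0.14 and *Pcp4* at −0.11. Of these 22 genes, 0 passed in stimulated rats, and 2 had an unadjusted limma p under 0.05.

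Of 21 calcium pumps, exchangers, store channels and calcium-dependent kinases and phosphatases, 2 were higher and 3 lower in WAR N, and 4 were higher and 4 lower without Wistar N replicate 1. *Ryr3*, a calcium release channel of the endoplasmic reticulum, was higher by 0.60 (adjusted p = 0.0110 from limma) and *Camk4* by 0.42 (adjusted p = 0.0382). *Atp2a2*, the pump that fills the endoplasmic reticulum with calcium, was lower at −0.41 (adjusted p = 0.0153), as were the calcineurin subunits *Ppp3cb* (−0.81) and *Ppp3r1* (−0.48). The plasma membrane pump of auditory neurons, *Atp2b2*, was at −0.30 (adjusted p = 0.180). In stimulated rats 0 of the 21 passed, and 1 had an unadjusted limma p under 0.05.

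Beside *Pvalb*, 12 genes of fast-spiking channels and perineuronal nets, the matrix coats that surround many parvalbumin neurons, were read, and 0 were higher and 3 lower in WAR N (median −0.23). *Bcan* was lower at −1.04 (adjusted p = 0.0014 from limma), *Ncan* at −0.52 (adjusted p = 0.0165) and *Hapln4* at −0.66 (adjusted p = 0.0035), which are genes of the matrix. The other matrix genes of the list did not pass, with *Acan* at −0.21, *Hapln1* at −0.26 and *Tnr* at 0.07. None of the potassium channel genes in the list passed with all arrays, where they ran from −0.40 for *Kcnc1* (adjusted p = 0.0617) to 0.62 for *Kcna2* (adjusted p = 0.0721). Without Wistar N replicate 1, 2 genes of the list were higher, the channel genes *Kcna1* (0.54) and *Kcna2* (0.91), and 3 were lower. With sound 0 of the 12 passed, and 2 had an unadjusted limma p under 0.05. There *Bcan* was at −0.57, *Ncan* at −0.58, *Hapln1* at −0.30, *Hapln4* at −0.05, *Acan* at 0.04 and *Tnr* at 0.14. *Bcan* and *Ncan* are also made by glia, and 2 of 8 astrocyte markers, *Aldh1l1* (−0.76) and *Slc1a3* (−0.45), were lower in WAR N, with *Slc1a2* (0.37) higher as well without Wistar N replicate 1. With sound 0 of the 8 astrocyte markers passed, and 2 had an unadjusted limma p under 0.05. All 8 were lower in WAR S there, with a median of −0.25 against 0.01 over all genes. The mean of the astrocyte list was 11.69 to 11.73 in Wistar S and 11.34 to 11.56 in WAR S. The part of astrocyte RNA in the matrix genes was not tested.

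For the neuron makeup of the samples, 20 general neuron markers were read beside the 9 genes. In naïve rats 2 were higher and 6 lower in WAR, with a median of 0.05, but without Wistar N replicate 1, 6 were higher and 7 lower, with a median of 0.17. With all arrays, *Nefm* (−1.04) and *Nefh* (−1.01), the neurofilament subunits of large axons, *Gap43* (−1.03), *Syp* (−0.53), *Dnm1* (−0.51) and *Eno2* (−0.38) were lower, and *Stmn3* (0.93) and *Thy1* (0.54) were higher. The mean of the list ran from 10.84 to 11.19 over Wistar N arrays and from 10.78 to 11.01 over WAR N arrays, which overlap, and was 11.05 ± 0.06 (SD, n = 2) in Wistar S and 11.12 ± 0.05 (SD, n = 5) in WAR S. When each array was centred on this mean, the median naïve difference of all genes moved to 0.14. On that scale *Pvalb* was at −0.52 and lost its call (adjusted p = 0.0737 from limma), while *Hpca* and *Necab1* kept theirs and *Vsnl1*, at 0.48, passed, where 23.2% of all genes did. The list mean was 11.04 in Wistar N and 10.93 in WAR N, although the median difference of its genes was 0.05. Centring shifts all genes of an array by the same amount, so it cannot adjust the 9 genes for neuron content.

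Markers of inhibitory neurons were not uniform. Of 7 measured, *Gad1* (−0.83, adjusted p = 0.0025 from limma), *Slc32a1*, the vesicular GABA transporter (−1.14, adjusted p = 0.0023), and *Gata3* (−0.43, adjusted p = 0.0457) were lower and *Slc6a5*, the glycine transporter (0.50, adjusted p = 0.0035), was higher in WAR N, while *Gad2* was at −0.05. When Wistar N replicate 1 was left out, *Gata3* lost its call (adjusted p = 0.0615) and *Sst*, which encodes somatostatin, was higher (1.07), so that 2 were higher and 2 lower. *Gata3* is also 1 of 6 tectum markers, of which it alone passed with all arrays and *Pou4f1* (0.26, adjusted p = 0.0175) alone without Wistar N replicate 1. *Slc17a6*, of excitatory neurons, was lower too (−0.62, adjusted p = 0.0143). In stimulated rats 0 of the 20 neuron, 7 inhibitory and 3 excitatory markers passed, and 2, 2 and 1 of them had an unadjusted limma p under 0.05. Stimulated differences of the inhibitory markers ran from −0.0056 (*Gad1*) to 0.40 (*Gata3* and *Slc6a5*), and those of the excitatory markers from −0.55 (*Slc17a7*) to 0.11 (*Slc17a8*). Their part in the *Pvalb* values was not tested.

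Tissue at the border of the dissection was read with 11 cerebellum and 3 forebrain markers. *Cbln1*, a synaptic organizer of cerebellar granule cells that is also made elsewhere in the brain, was lower (−0.89, adjusted p = 0.0051 from limma) and *Cdh15* higher (0.26, adjusted p = 0.0099) in WAR N. Without Wistar N replicate 1, 3 cerebellum markers were higher and 3 lower, and 1 forebrain marker, *Lhx2* (0.25), was higher. Of the 14 markers, 0 passed in stimulated rats, where *Gabra6* was at −0.68 (adjusted p = 0.0756). Some blood vessel genes were higher in WAR. The mean of 7 endothelial markers was 6.82 to 6.89 in Wistar N apart from replicate 1, which was at 7.79, and 7.34 to 7.86 in WAR N. It was 6.98 to 7.02 in Wistar S and 7.54 to 7.98 in WAR S, and *Pecam1* and *Tek* passed in naïve and *Tek* in stimulated rats, while the naïve *Kdr* was at 0.05 and *Cldn5* at 0.26. In WAR N 6 of the 7 were higher without Wistar N replicate 1. Of 8 microglia markers 3 were higher in WAR N and 1, *P2ry12* (0.89), in WAR S, of 7 oligodendrocyte markers 1 was higher and 1 lower in WAR N, and 0 of 6 choroid plexus markers passed in either. Leaving out Wistar N replicate 1 made *Itgam* of the microglia list pass as lower (−0.37) and *Cldn11* of the oligodendrocyte list as higher (1.00). The part of these cell types in the values of *Hpca*, *Necab1* and *Pvalb* was not tested.

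**Figure D4:**
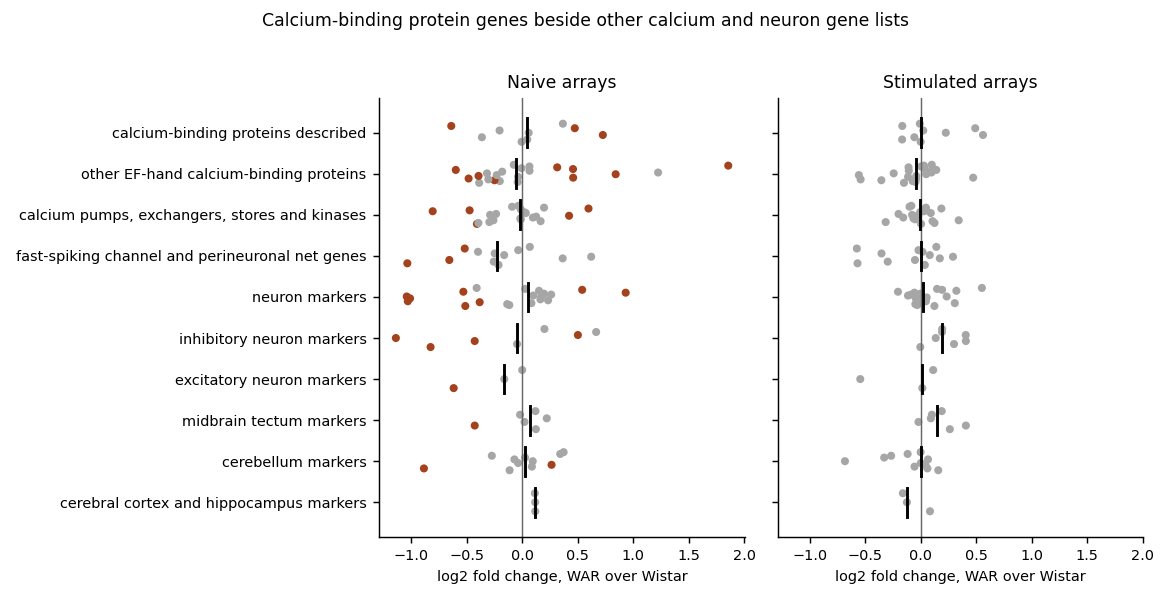
Log2 fold changes of WAR over Wistar for the 9 genes and for other calcium and neuron gene lists, in naïve (left) and stimulated (right) arrays, with a point for each gene, red where the adjusted p was under 0.05, and a line at the median of each list. Red points lie on both sides of 0 in most naïve lists, and no point of these lists is red in stimulated arrays.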

How the data were processed

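Gene expression in the IC was measured in 15 samples on Affymetrix Rat Gene 1.0 ST arrays. Values were deposited by the authors as log2 intensities from RMA, with no software version stated in the sources at hand. Of 29214 probe sets, 15310 carried 1 gene symbol in the platform's annotation, 323 several and 13581 none, and 15279 of those with 1 symbol matched a rat gene table of GRCr8. Where a gene had more than 1 probe set (527 genes), the brightest by its mean was used. Probes are given without coordinates, because no source at hand names their genome build. 0 columns of sample values were left unused.

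Strains were compared with limma 3.58.1 in R 4.3.3 with a mean per group over all 15 arrays, so that the spread is pooled over the 4 groups, and Benjamini-Hochberg adjustment over 14506 genes at 0.05. Single genes were also tested with exact 2-sided permutation tests. SAM, which the methods name, was not run. Simulated data for 14506 genes on all 15 arrays, with changes added in WAR S, served to check this step for WAR S against Wistar S. Of the changed genes, 83 of 100 with a log2 change of 1 and all 100 with a log2 change of 2 were called, as were 18 unchanged genes. The simulated noise was independent between arrays, with the same spread in every group. It held no deviating array and no shared identical values, so these counts need not hold for the real arrays. Identical values shared by stimulated arrays make their spread smaller, and through the pooling this spread also enters the naïve p-values. Precision is limited by how few arrays there are (2 of Wistar S), since signal over background cannot be recomputed from the deposited values.

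The genes described and the lists set beside them were chosen with earlier results of these data known. Of each list, the genes past the threshold in either strain comparison were named, and otherwise at most the 2 with the smallest p in each comparison, with up to 4 defining genes of the neuron and region lists. *Kcnc1*, *Kcna1*, *Kcna2*, *Acan*, *Hapln1*, *Tnr*, *Kdr*, *Cldn5* and genes called without Wistar N replicate 1 alone were named after their values were seen, outside this rule. Alternatives are given in the closing section. Promoter windows are RefSeq's for GRCr8.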

Additional observations from a re-analysis of the deposited data

Results flagged for a closer look

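In groups of 4 or 5 arrays, a value that lay far from the others of its group, by the gap to its nearest neighbour as a share of the whole range, was found in 5 of 27 groups tested, where chance gives about 1 in 20. *Hpca* was 10.71 in WAR N replicate 1, against 10.04 to 10.15 in the other WAR N arrays. *Hpcal1* was 10.31 in WAR S replicate 4, against 9.81 to 9.89 in the other WAR S arrays. *Vsnl1* was 12.69 in WAR S replicate 3, against 13.05 to 13.18. *Ncald* was 11.53 in Wistar N replicate 3, against 11.15 to 11.21. *Caln1* was 8.67 in WAR S replicate 4, against 9.33 to 9.48. Wistar N groups were tested with replicate 1 included, and its values were not far enough from the rest by this measure.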

How the results depend on the processing

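Of 507 values of single genes recomputed under the alternatives (24 results), 416 kept their direction and side of the threshold, 40 lost and 10 gained a call, and 41 changed sign, each for a value not called under either setting. In naïve rats, where 3 of the 9 genes passed, 0 passed with only the naïve groups in the model (*Pvalb* adjusted p = 0.0723, *Hpca* 0.144, *Necab1* 0.0532 from limma, with 879 genes called in place of 3037). With only the first label set 0 passed (0.123, 0.470 and 0.0542, with 217 genes called), and 0 did at a fold change of 2 (256 genes). *Hpca* also lost its call when all 29214 probe sets were tested (adjusted p = 0.0583). The fits on the naïve groups alone and on the first label set pool the spread over fewer arrays. The former also leaves out the stimulated arrays, whose shared identical values make their spread smaller. Naïve adjusted p-values from the fit over all 15 arrays can therefore be too small. A fold change of 2 is a size that none of the 9 reached, and the cause of the lost calls was otherwise not tested. Leaving out arrays in turn gave 1 to 4 called genes of the 9 in naïve rats, where 1987 to 5968 of all genes were called. It gave 0 of the 9 in stimulated rats (7 to 50 genes called). For the change of the strain difference with sound it gave 0 of the 9 (0 to 2956 genes, the most without Wistar N replicate 1). In stimulated rats 1 gene passed with the compared groups alone (274 genes called in place of 60) and 2 with array weights (1433 genes), and with these weights 1 gene passed for the change of the strain difference. For the mean strain effect 2 of the 9 passed (1449 genes called). Under the replicate block 1 passed (953 genes), and with the first label set 1 did (272 genes). With all probe sets 1 passed (2049 probe sets), and at a fold change of 2 there were 0 (41 genes). With arrays left out in turn 1 to 3 passed (340 to 4264 genes).

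Replicate numbers were not taken to pair the arrays. Same-numbered arrays deviated from their group means with correlations of −0.31 to 0.06 over 6 pairs, against −0.35 to 0.39 over 20 others. With so few arrays in a group, these correlations cannot settle whether the numbers pair the arrays. With the number as a block 3 of the 9 passed in naïve rats (2490 genes) and 0 in stimulated rats (16 genes). The block turned the stimulated *Calb1* (0.22), *Vsnl1* (0.088) and *Caln1* (0.054).

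Other sign changes were in stimulated rats *Calb1* with the label set as a block (0.20), the first label set (0.25), array weights (0.10) and arrays left out (−0.10 to 0.16), *Vsnl1* with the label set as a block (0.030), the first label set (0.043) and arrays left out (−0.051 to 0.071), *Caln1* with the first label set (0.11), array weights (0.030) and arrays left out (−0.11 to 0.089), and *Ncald* centred on neuron markers (−0.049) and with arrays left out (−0.043 to 0.083). In naïve rats they were *Calb1* with the first label set (0.56), cyclic loess (0.018), centring on neuron markers (0.11) and arrays left out (−0.28 to 0.23), *Hpcal1* with the first label set (−0.089) and arrays left out (−0.13 to 0.35), *Ncald* with the first label set (0.12), and *Calb2* with arrays left out (−0.090 to 0.21). The change of the *Necab1* difference with sound was −0.20 in the first label set, −0.011 after cyclic loess, −0.17 after centring on neuron markers, which moved the median of all genes by −0.20, and −0.060 to 0.096 with arrays left out. It cannot be given when the model holds the compared groups alone.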
